A study of Mus musculus with 4 samples.

Results

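Ribosomes are built in the nucleolus, and the genes described here encode the factors that build them. They were chosen by symbol from a list of 42 genes, out of 31053 genes in the deposited feature table, and all 42 were found. The list holds the core proteins of box C/D and H/ACA small nucleolar ribonucleoprotein particles (snoRNPs), nucleolar chaperones, RNA polymerase I, and assembly factors of the small and large ribosomal subunits. The study cultured B cells purified from the spleen of wild-type mice with the oligonucleotide CpG B ODN 1668, an agonist of TLR9, for 3 days (Bregs-CpG). A second population (Bregs-TLR) had the same CpG culture and in addition received LPS, an agonist of TLR4, with PMA and ionomycin during the final 5 hours. Both groups share the CpG culture, each has 2 labelled samples, and cells were profiled by droplet scRNA-Seq, in which every unique molecular identifier (UMI) stands for 1 captured transcript. The deposited barcodes end in a library number, 5 to 8, that no label ties to a sample, so no library was placed in a group and no difference between Bregs-CpG and Bregs-TLR was tested. The values below describe 4 libraries, the intervals (95%) cover counting error only, and variation between mice or cultures cannot be read from them.

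RNA polymerase I transcribes ribosomal DNA into a long precursor, which snoRNPs modify at chosen bases and which a large processome folds and cuts. Assembly factors then mature the precursors of both subunits, and they leave the particles before translation starts. Resting B lymphocytes have small nucleoli, and activated, growing B lymphocytes enlarge them and make more ribosomes, a program in which the transcription factor Myc is a known regulator.

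Myc binds the E-box CACGTG, a motif that reads alike on both strands, so the promoters of the genes were searched for these letters as a description. RefSeq promoters on GRCm38.p6, from 250 bases before to 50 bases after the transcription start, were matched for 36 of the 42 genes. The motif was present in 8 of these 36 genes (22.2%), against 8.09% of 27025 genes with a promoter in the same table. By promoter, it was present in 8 of 40 (20%), against 7.15% of 32851. These backgrounds hold all genes of the table, whether or not they were detected in these cells. The share among detected genes was not computed, so the difference cannot be called particular to the 42 genes. The windows below, each 30 bases, show where the motif lies in the 8 genes. Capitals mark the motif, and all are written 5′ to 3′ on the strand of the gene.
Nop2, chr6:125131811-125131840, plus strand, motif before the transcription start: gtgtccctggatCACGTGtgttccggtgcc
Rrn3, chr16:13780472-13780501, plus strand, motif before the transcription start: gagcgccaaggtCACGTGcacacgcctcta
Rrn3, chr16:13780639-13780668, plus strand, motif before the transcription start: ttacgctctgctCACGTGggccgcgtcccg
Utp4, chr8:106893643-106893672, plus strand, motif in the 5′ UTR: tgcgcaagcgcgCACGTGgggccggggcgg
Ltv1, chr10:13193092-13193121, minus strand, motif in the 5′ UTR: gccctgtggaccCACGTGtggagctgccgg
Utp20, chr10:88826765-88826794, minus strand, motif in the 5′ UTR: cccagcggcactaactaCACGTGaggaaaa
Pes1, chr11:3963965-3963994, plus strand, motif in the 5′ UTR: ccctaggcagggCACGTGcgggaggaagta
Tsr1, chr11:74898092-74898121, plus strand, motif in the 5′ UTR: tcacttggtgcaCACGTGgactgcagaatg
Wdr43, chr17:71616220-71616249, plus strand, motif in the 5′ UTR: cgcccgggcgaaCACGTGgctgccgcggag
The 8 genes with the motif had a median log2 ratio of 1.63 for library 7 over library 5, and the 28 matched genes without it had 1.89. A match in the letters is not evidence of binding, and binding was not measured. Npm1, Rrp12, Rrs1, Fbl, Nop53, and Bop1 had no entry in the promoter table.

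After removal of cells with fewer than 1000 detected genes or with 10% or more mitochondrial UMIs, 18534 cells were kept, between 4003 and 5621 per library, with median depths from 8752 to 10355 UMIs. The barcodes were taken as the last 19920 of 35989 matrix columns. Mean expression along the columns shifted at the start of library 7 by more than at any other column (percentile 100) and at the starts of libraries 5 and 8 at percentiles 99.35 and 91.73, whereas the start of library 6 was at percentile 58.64. The border between libraries 5 and 6 was therefore not seen in the data, and 29 barcode sequences occurred in more than 1 library. B cell markers (7 of 7 detected) summed to between 7993 and 15660 UMIs per 1000000 UMIs of the library (CPM), and T and NK cell markers summed to at most 0.232 CPM, with 5 of 7 at 0. Libraries 5 and 6 stood apart from libraries 7 and 8 in several measures: the median mitochondrial share was 7.22% and 7.18% against 4.61% and 4.65%, the summed plasma cell markers (7 of 7 detected) were 1614 and 1779 CPM against 390 and 339 CPM, most of it Mzb1 (1441, 1548, 154, and 157 CPM), and the summed B cell markers were highest in libraries 5 and 6. Other plasma cell markers had another order, such as Xbp1 (84.7, 91.7, 112, and 107 CPM) and Sdc1 (0.201, 0.213, 7.45, and 6.15 CPM), and Jchain (36.3, 83.3, 70.9, and 30.2 CPM) was mixed. Summed myeloid markers ranged from 2.41 to 7.75 CPM, with 3 of 7, Lyz2 among them, at 0. Summed erythroid markers were 4.62 and 4.32 CPM in libraries 5 and 6 and 219 and 285 CPM in libraries 7 and 8, nearly all of it Hbb-bt, while Hba-a1 and Hba-a2 were at 0. Summed S phase markers were 234 and 246 CPM against 544 and 512 CPM, and summed mitosis markers 238 and 267 CPM against 166 and 177 CPM. The part of these differences in the results below was not tested.

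Ribosome biogenesis genes were several-fold higher in libraries 7 and 8 than in libraries 5 and 6. The 42 genes together took 3879 CPM (3861 to 3897) in library 5, 3815 CPM (3799 to 3832) in library 6, 13441 CPM (13413 to 13470) in library 7, and 13111 CPM (13078 to 13144) in library 8. The 2 lower libraries differed little, as did the 2 higher ones, and the range between them was empty. All 42 genes reached the level of 5 CPM over all cells that was set for ratios, which 8234 genes of the series did. At a 1.5-fold difference, 39 of the 42 genes (92.9%) were higher in library 7 than in library 5, where 31.9% of the 8234 genes were. The count was again 39 for library 8 over 5 (28.6% of all genes), for library 7 over 6 (30.2%), and for library 8 over 6 (27.1%). In the opposite direction the count was 0 in each of the 4 comparisons, where 18.5%, 19.9%, 19.4%, and 20.7% of all genes were lower.

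**Figure D1:**
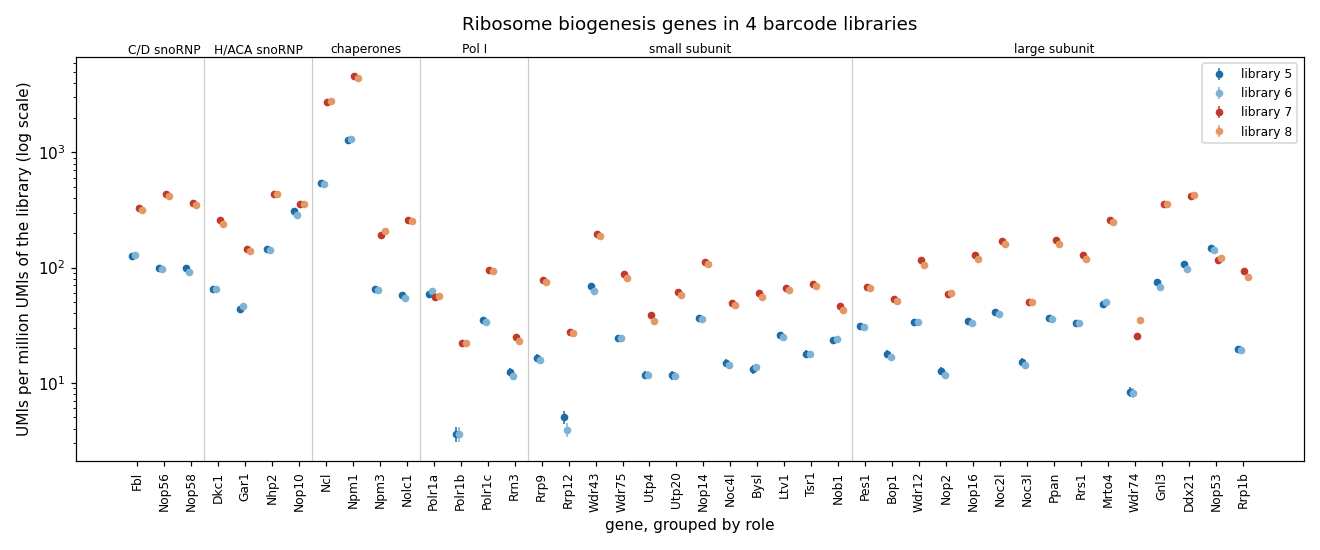
Level of each of the 42 genes in CPM, on a log axis, with points for libraries 5 to 8 and bars for the 95% counting interval. Libraries 7 and 8 lie above libraries 5 and 6 for 40 genes, and Polr1a and Nop53 are the 2 exceptions.

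The median log2 ratio over the 42 genes was 1.84 for library 7 over 5, 1.79 for 8 over 5, 1.83 for 7 over 6, and 1.81 for 8 over 6. All genes had medians of 0.23, 0.17, 0.19, and 0.13 in these comparisons, so that the genes stood 1.61, 1.62, 1.64, and 1.68 above the middle of the transcriptome. A 2-fold difference was reached by 38 of the 42 genes in library 7 over 5 and a 4-fold difference by 15. The shares of all genes at these wider limits are not given, and they cannot exceed the 31.9% at 1.5-fold. Libraries 6 and 5, and libraries 8 and 7, whose summed levels of the same genes were close, showed no such differences. Nearly all genes of the series likewise stayed within 1.5-fold there. Between libraries 6 and 5, 0 of the 42 genes were 1.5-fold higher (0.0729% of all genes) and 0 lower (0.0972%). The median log2 ratio there was -0.04, against 0.04 for all genes, and 4 of the 42 genes lay above the latter. The intervals of 9 of the 42 genes lay below 0 and those of 2 above 0, where 17.7% of all genes lay above. Between libraries 8 and 7, 0 were higher (0.109%) and 0 lower (0.498%), with a median of -0.06, equal to that of all genes. Ranked by level, libraries 7 and 8 were the highest for 40 of the 42 genes and for 55% of all genes, and libraries 5 and 6 for the other 2 and for 36.7% of all genes. The comparisons share libraries, so their counts are not independent of each other.

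**Figure D2:**
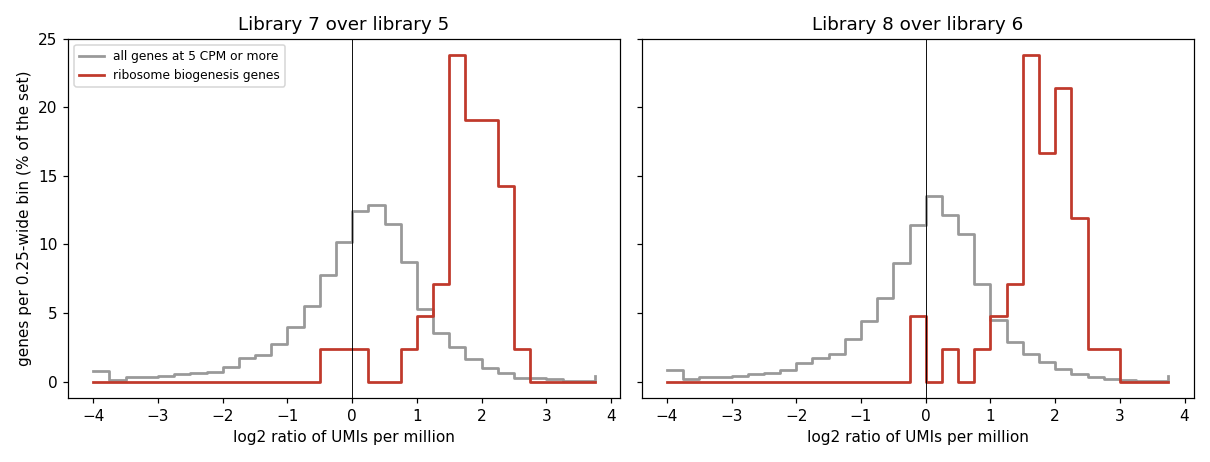
Distribution of log2 ratios of CPM for library 7 over 5 and library 8 over 6, as percent of each set per bin, with all 8234 genes in grey and the 42 ribosome biogenesis genes in red; the end bins hold everything beyond them. The red curves have medians of 1.84 and 1.81, and the grey ones have medians of 0.23 and 0.13.

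The modification machinery of ribosomal RNA showed the difference in most of its members. Box C/D snoRNPs methylate ribose, and their methyltransferase fibrillarin (Fbl) had 127, 129, 326, and 314 CPM in libraries 5, 6, 7, and 8. Nop56, a core protein of the same particles, had 99.1, 97.5, 439, and 417 CPM, a log2 ratio of 2.15 (2.10 to 2.19) for library 7 over 5. Its partner Nop58 had 98.2, 92.4, 362, and 347 CPM. For these 3 genes libraries 7 and 8 were both above libraries 5 and 6, as for 40 of the 42 genes and 55% of all genes.

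Box H/ACA particles convert uridine to pseudouridine. Their catalytic subunit dyskerin (Dkc1) had 65.1, 64.9, 257, and 238 CPM in libraries 5 to 8, a log2 ratio of 1.98 (1.92 to 2.04) for library 7 over 5. Gar1 (43.8, 46.4, 145, and 138 CPM) and Nhp2 (144, 142, 437, and 435 CPM), which complete the particle, were also higher in libraries 7 and 8. The fourth core protein, Nop10, was one of 3 genes that did not reach 1.5-fold, with 311, 288, 356, and 359 CPM. Its log2 ratio was 0.19 (0.16 to 0.22) for library 7 over 5 and 0.32 (0.29 to 0.35) for library 8 over 6, and with TMM scaling the former was -0.04. Thus members of the same particle moved by unequal amounts.

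Nucleolar chaperones carried most of the UMIs. Nucleolin (Ncl, chr1:86344719-86359400), which binds the precursor RNA and ribosomal chromatin, had 545, 532, 2736, and 2793 CPM in libraries 5 to 8. The log2 ratio of Ncl was 2.33 (2.31 to 2.35) for library 7 over 5 and 2.39 (2.37 to 2.41) for library 8 over 6. Nucleophosmin (Npm1), a histone chaperone of the nucleolus with processed pseudogenes in the genome, had 1284, 1304, 4624, and 4406 CPM, and how reads shared with pseudogenes were counted was not tested. Npm3, a relative of nucleophosmin, and Nolc1, a chaperone of snoRNPs, were likewise higher in libraries 7 and 8 than in libraries 5 and 6. Npm3 had 64.5, 63.2, 192, and 208 CPM, and Nolc1 had 57.4, 54.3, 259, and 252 CPM. Summed over these 4 genes, the level was 1951, 1953, 7811, and 7658 CPM.

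RNA polymerase I was split. Its largest subunit, Polr1a, which holds the catalytic site, had 59.0, 62.5, 55.9, and 56.5 CPM in libraries 5 to 8, the flattest profile among the 42 genes. The log2 ratio of Polr1a was -0.08 (-0.15 to -0.01) for library 7 over 5, and it was positive (0.50) when only cells under 5% mitochondrial UMIs were kept, which left 143 and 207 cells in libraries 5 and 6. Polr1b, the second-largest subunit, had 3.57, 3.56, 22.2, and 22.0 CPM, and its log2 ratio of 2.64 (2.40 to 2.88) was the highest of the 42 genes in library 7 over 5. Polr1c, which is shared with RNA polymerase III, had 35.1, 33.6, 95.3, and 92.9 CPM. Rrn3, the initiation factor that brings the polymerase to ribosomal DNA, had 12.4, 11.4, 24.8, and 22.9 CPM, with a log2 ratio of 1.00 (0.86 to 1.14). Subunits of the same enzyme thus ranged from a slight decrease to the largest increase in library 7 over 5.

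All 12 genes of the small subunit were 1.5-fold higher in each of the 4 comparisons, with median log2 ratios from 1.69 to 1.81. Rrp9, a protein of the U3 snoRNP, had 16.5, 15.9, 78.1, and 75.1 CPM in libraries 5 to 8. Of the early processome proteins, Wdr43 had 68.8, 62.6, 196, and 187 CPM, Wdr75 had 24.7, 24.7, 87.6, and 81.2 CPM, and Utp4 had 11.7, 11.7, 39.1, and 34.1 CPM. Utp20, a large scaffold, had 11.6, 11.5, 61.3, and 58.2 CPM, a log2 ratio of 2.40 (2.27 to 2.54) for library 7 over 5. Early and scaffold proteins alike were higher in both of libraries 7 and 8, as 55% of all genes were. Nop14 (36.4, 35.5, 112, and 107 CPM) and its binding partner Noc4l (14.9, 14.1, 49.1, and 47.0 CPM) were close to the middle of the group.

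Later in small-subunit maturation, Bysl had 13.05, 13.6, 60.7, and 56.0 CPM, Tsr1 had 17.9, 17.8, 71.8, and 68.5 CPM, and Ltv1, which is linked to export of the particle, had 26.1, 25.2, 67.0, and 63.8 CPM. Rrp12, needed for maturation and export, had 5.00, 3.89, 27.5, and 27.1 CPM. Its log2 ratio of 2.80 (2.58 to 3.02) for library 8 over 6 was the highest of the 42 genes there, and the gene had 224 and 201 UMIs in libraries 5 and 6. Nob1, the endonuclease that makes the final cut in the small-subunit RNA, had 23.7, 23.9, 46.2, and 42.9 CPM, a log2 ratio of 0.97 (0.86 to 1.07) for library 7 over 5. The last enzyme of the pathway thus had the smallest ratio in this group. Libraries 7 and 8 were still both above libraries 5 and 6, as for 55% of all genes.

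In the large subunit, 14 of 15 genes were 1.5-fold higher in each of the 4 comparisons, with median log2 ratios from 1.96 to 2.01. Pes1, Bop1, and Wdr12 form the PeBoW complex, which is needed to process the large-subunit RNA. Pes1 had 31.2, 30.3, 68.1, and 66.4 CPM in libraries 5 to 8, Bop1 had 17.8, 16.6, 53.2, and 51.6 CPM, and Wdr12 had 33.5, 33.5, 117, and 105 CPM. Pes1 had the smallest increase of the complex, with a log2 ratio of 1.13 (1.04 to 1.21) for library 7 over 5 against 1.58 (1.47 to 1.69) for Bop1 and 1.803 (1.72 to 1.88) for Wdr12. In each of the 4 comparisons the interval of Pes1 lay below the others. Those of Bop1 and Wdr12 were apart only in library 7 over 5. For library 8 over 6 they were 1.63 (1.52 to 1.75) and 1.64 (1.56 to 1.72).

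Mrto4, which holds the place of the ribosomal stalk on the precursor, had 48.0, 49.8, 257, and 247 CPM, and its log2 ratio was 2.42 (2.35 to 2.48) for library 7 over 5. Nop2, a methyltransferase of the large-subunit RNA, had 12.7, 11.7, 58.8, and 60.1 CPM. Gnl3 (nucleostemin), a GTPase abundant in proliferating cells, had 74.9, 67.4, 357, and 358 CPM. Each of these genes was more than 4-fold higher in both of the higher libraries. Ddx21, an RNA helicase, had 107, 96.4, 418, and 427 CPM, and Rrp1b had 19.4, 19.4, 93.9, and 83.5 CPM. Rrs1, which helps to load the ribosomal particle of the small 5S RNA, had 32.7, 33.3, 128, and 118 CPM. Noc2l, Noc3l, Nop16, and Ppan had log2 ratios between 1.72 and 2.24 for library 7 over 5. Wdr74 had 8.32, 8.11, 25.6, and 35.0 CPM, and it differed most between libraries 8 and 7 (log2 ratio 0.45), short of 1.5-fold.

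Nop53, which guides the RNA exosome to the large-subunit precursor and is known for its link to p53, was the exception in the large subunit. It had 147, 141, 117, and 120 CPM, so that both of libraries 7 and 8 were below libraries 5 and 6, as for Polr1a. The log2 ratio of Nop53 was -0.33 (-0.38 to -0.28) for library 7 over 5 and -0.24 (-0.29 to -0.18) for library 8 over 6, short of 1.5-fold.

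Beyond the 42 genes, 143 of 152 further genes of the pathway were matched by symbol and 142 reached 5 CPM, with Rpf2 counted in 2 of the lists below. These lists describe the same direction in most of their parts. The background shares given above are for single comparisons. The share of all genes past the fold in both comparisons is not given, and it cannot exceed either single share. In library 7 over 5 and in library 8 over 6, 39 and 37 of 46 other small-subunit processome genes were 1.5-fold higher and 0 lower, and 35 and 35 of 41 other large-subunit genes were higher and 1 lower. Pwp2, of the processome, had 4.62, 4.202, 25.8, and 22.4 CPM in libraries 5 to 8, and Mdn1, the giant ATPase that remodels the large-subunit precursor, had 24.7, 24.8, 124, and 120 CPM. The helicase Ddx54 was the lower one, with 131, 123, 84.0, and 77.8 CPM. Of 9 further snoRNP assembly genes, 8 were higher in both comparisons, among them the chaperone Shq1 with 5.82, 6.003, 23.9, and 22.4 CPM.

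Of 16 RNA polymerase I subunits and factors outside the list, 10 were 1.5-fold higher in each comparison, 9 of them in both, and 0 lower. The polymerase I subunit Cd3eap had 11.95, 11.97, 76.6, and 73.7 CPM, while the promoter factor Taf1b had 16.9, 17.9, 15.1, and 13.7 CPM. Of 17 exosome and trimming genes at 5 CPM, 13 were higher in both, Dis3 (13.3, 14.4, 50.5, and 47.4 CPM), a ribonuclease of the exosome, among them. Only 4 of 13 transcripts that host snoRNAs were matched. Of these 4, 1 was higher, Snhg12 (47.5, 48.6, 121, and 126 CPM), where 31.9% and 27.1% of all genes were. Of 10 genes of ribosomal stress, 3 were higher in each comparison, near the shares of all genes (31.9% and 27.1%), and 2 of them in both. Lower in both was 1 of the 10, where 18.5% and 20.7% of all genes were lower in the single comparisons. The lower one was Sesn1, a p53 target, with 23.2, 23.6, 9.60, and 8.10 CPM, and another p53 target, Cdkn1a, had 8.03, 7.03, 15.5, and 13.3 CPM.

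The distribution over single cells was examined after each cell was thinned to 5000 UMIs, which left 17872 cells and removed between 114 and 233 shallower cells per library. The median cell then held 15 UMIs of the 42 genes in libraries 5 and 6, 66 in library 7, and 64 in library 8. The 5th to 95th percentiles were 7 to 41 and 8 to 38 UMIs in libraries 5 and 6, and 27 to 107 and 25 to 105 in libraries 7 and 8. The difference was therefore spread over most cells, although the ranges overlapped between the lower and the higher libraries.

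**Figure D3:**
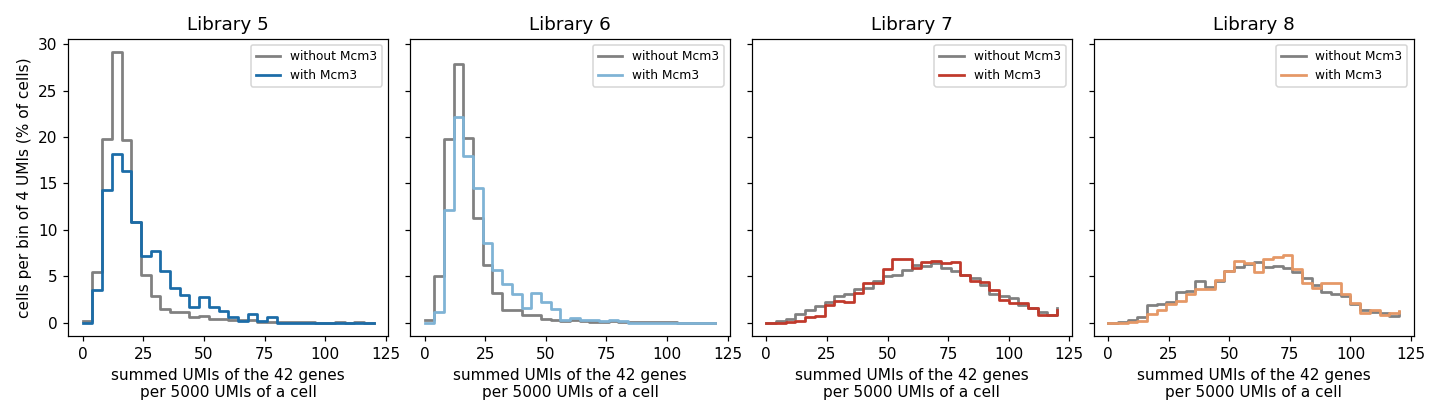
Summed UMIs of the 42 genes per cell after thinning to 5000 UMIs, as percent of cells per bin of 4 UMIs, for cells with (colour) and without (grey) a Mcm3 UMI in libraries 5 to 8; the last bin holds all cells beyond it. Medians are 19 and 15 UMIs with and without Mcm3 in libraries 5 and 6, and between 63 and 67 in libraries 7 and 8.

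Mcm3 encodes a subunit of the helicase that opens replication origins, and its transcript marks cells entering or in S phase. At 5000 UMIs, a Mcm3 UMI was found in 544 of 4038 cells of library 5 (13.5%, Clopper-Pearson interval 12.4% to 14.6%), in 13.5% of cells of library 6 (12.5% to 14.5%), in 34.6% of library 7 (33.3% to 35.9%), and in 33.7% of library 8 (32.3% to 35.3%). Without thinning the shares were 20.9%, 22.2%, 48.8%, and 47.0%. Cells without a Mcm3 UMI include cells whose transcript was not captured, and with no cell type at hand that lacks Mcm3, the part of free RNA in these shares was not tested. Among cells without Mcm3, and likewise among cells with it, 39 of the 42 genes were 1.5-fold higher and 0 lower in each of the 4 comparisons of library 7 or 8 with 5 or 6. The shares of all genes past the fold in these subsets are not given. The median log2 ratios of all genes there lay between 0.09 and 0.26. The median log2 ratio of the 42 genes without and with Mcm3 was 2.00 and 1.59 in library 7 over 5, 1.94 and 1.55 in library 8 over 5, 1.99 and 1.75 in library 7 over 6, and 1.93 and 1.70 in library 8 over 6, so that it was smaller among cells with Mcm3 in each comparison.

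Within a library, the summed 42 genes were higher in cells with Mcm3 in libraries 5 and 6. The ratio of the sum was smaller, though above 0, among cells of 8000 to 12000 UMIs, where single genes went both ways. Abundant genes weigh most in the sum: in library 5, Ncl and Npm1 held 545 and 1284 of its 3879 CPM. At 5000 UMIs the summed genes had 4632 CPM with and 3477 CPM without Mcm3 in library 5, a log2 ratio of 0.41 (0.39 to 0.44), and 4456 and 3455 CPM in library 6, a ratio of 0.37 (0.34 to 0.39). In library 7 the values were 13448 and 13157 CPM (0.03, 0.02 to 0.04), and in library 8 13235 and 12678 CPM (0.06, 0.05 to 0.07). Thinning makes the number of UMIs alike but not the size of the cells: before it, cells with Mcm3 had medians of 13474, 13350, 11865, and 11667 UMIs in libraries 5 to 8, and cells without it had 8224, 8304, 9241, and 9021. Among cells that held 8000 to 12000 UMIs before thinning, a range chosen after the values were seen, the log2 ratio was 0.18 (0.12 to 0.23) in library 5, 0.08 (0.03 to 0.14) in library 6, -0.02 (-0.04 to -0.01) in library 7, and 0.02 (0.00 to 0.04) in library 8. These rest on 134 and 173 cells with Mcm3 in libraries 5 and 6.

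By quartile of total UMIs within library 5, the ratio was 0.03 (-0.06 to 0.13), -0.08 (-0.16 to 0.01), 0.22 (0.16 to 0.29), and 0.43 (0.39 to 0.47) from the shallowest to the deepest cells. In library 6 it was 0.02 (-0.06 to 0.10), 0.15 (0.08 to 0.23), 0.14 (0.07 to 0.20), and 0.40 (0.36 to 0.44). In libraries 7 and 8 the 4 quartiles lay between -0.09 and 0.08. The genes also rose with total UMIs irrespective of Mcm3: their summed level was 3020 CPM in the shallowest and 4486 CPM in the deepest quartile of library 5, 3002 and 4386 CPM in library 6, 11972 and 13772 CPM in library 7, and 11313 and 13444 CPM in library 8. In every quartile, libraries 7 and 8 stayed above libraries 5 and 6.

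**Figure D4:**
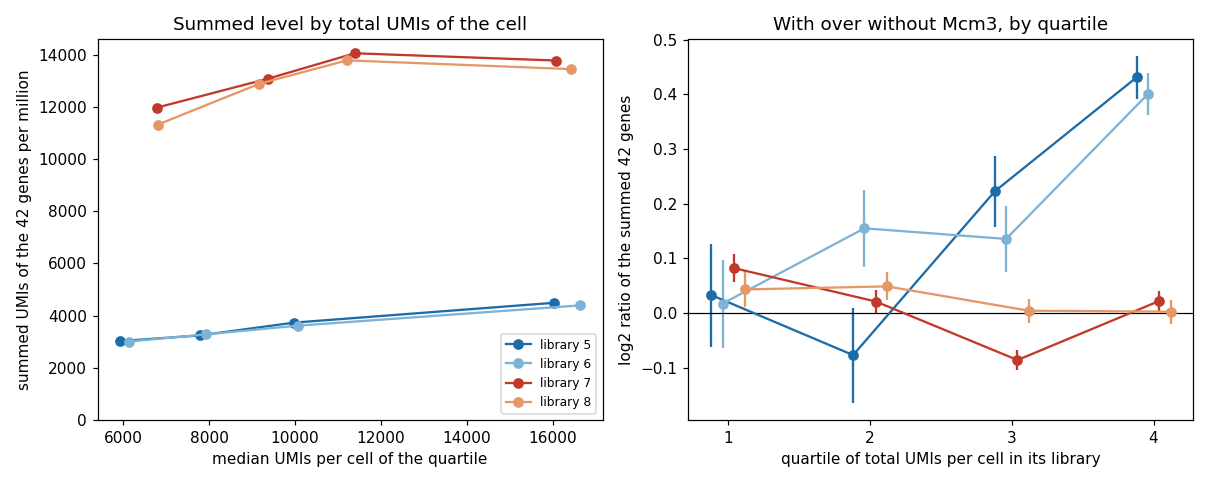
Left, summed level of the 42 genes in CPM, in quartiles of total UMIs per cell, against the median UMIs of the quartile; right, log2 ratio of the summed genes in cells with over cells without Mcm3 in each quartile, at 5000 UMIs, with 95% counting intervals. In libraries 5 and 6 the ratio reaches 0.43 and 0.40 in the deepest quartile and is 0.03 and 0.02 in the shallowest.

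Gene by gene at 5000 UMIs, 18 of the 42 genes (42.9%) were higher with Mcm3 by at least 0.32 on the log2 scale in library 5, where 21.3% of all genes were, and 14 (33.3%) in library 6, where 19% were. In libraries 7 and 8 the counts were 0 and 0 (8.84% and 10.3% of all genes). Lower with Mcm3 were 1 gene in library 5 (10.2%), Rrp12, and 0 in libraries 6, 7, and 8 (8.96%, 5.14%, and 6.68%). In all 4 libraries at once, 0 genes were higher (4.04% of all genes) and 0 lower (0.255%). A gene with few UMIs can pass this limit by counting error alone. By counting intervals, 5 and 4 of the 42 genes lay above 0 in libraries 7 and 8, where 13.2% and 11.9% of all genes did. The intervals of 4 and 3 of the 42 genes lay below 0 there. Among cells of 8000 to 12000 UMIs, 10 genes were past the limit of 0.32 as higher (26.1% of all genes) and 6 as lower (18.3%) in library 5. In library 6, 3 were higher (21.4%) and 8 lower (17.6%), with fewer cells behind each value.

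The 10 genes past 0.32 in both library 5 and library 6 at 5000 UMIs were Nop56, Nop58, Dkc1, Gar1, Ncl, Npm1, Nolc1, Mrto4, Gnl3, and Ddx21. Nop58 had log2 ratios of 0.88 (0.72 to 1.04) in library 5 and 0.67 (0.50 to 0.83) in library 6, and of 0.77 (0.42 to 1.10) and 0.26 (-0.10 to 0.60) among cells of like total UMIs. Ncl had 0.67 (0.60 to 0.74) and 0.62 (0.55 to 0.69), and 0.31 (0.16 to 0.46) and 0.09 (-0.05 to 0.24) among cells of like total UMIs. Gnl3 had 0.38 (0.17 to 0.59) and 0.33 (0.12 to 0.53), which became -0.21 (-0.71 to 0.25) and -0.20 (-0.66 to 0.22). For low genes such as Rrp12 and Polr1b the intervals were wide (-2.16 to 0.32 and -1.33 to 1.04 in library 5), and no difference was detectable at this depth. The cell cycle markers themselves differed widely by Mcm3: Mcm5 had log2 ratios of 2.74, 2.83, 2.33, and 2.09 in libraries 5 to 8.

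**Figure D5:**
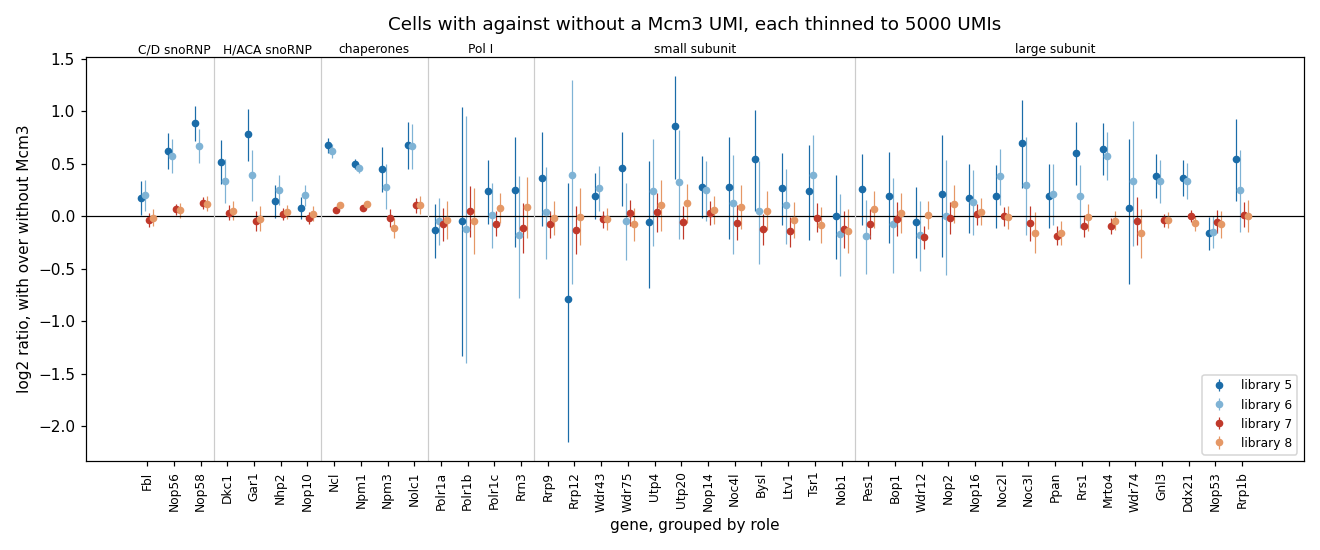
Log2 ratio of each of the 42 genes in cells with over cells without a Mcm3 UMI, each thinned to 5000 UMIs, in libraries 5 to 8, with 95% counting intervals. Ncl and Nop58 lie at 0.62 or above in libraries 5 and 6, and the genes in libraries 7 and 8 lie between -0.20 and 0.12.

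Across cells of a library, the genes varied together to different degrees. These correlations are descriptions over cells that share a library and a fixed number of UMIs. The Spearman correlation of a gene with the sum of the other 41 genes had its highest median over libraries for Ncl (0.556), followed by Npm1 (0.489), Nop56 (0.345), and Dkc1 (0.341), and its lowest for Nop53 (-0.017). Ncl had 0.380, 0.399, 0.712, and 0.721 in libraries 5 to 8, and Nop53 had -0.078, -0.071, 0.052, and 0.036. Genes with few UMIs, such as Rrn3 (0.047), cannot correlate strongly in such counts.

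Outside the lists, the genes whose UMIs followed the summed 42 genes most closely were Hspd1 (0.459), the mitochondrial chaperonin, Eif5a (0.407), a translation factor, Hsp90ab1 (0.398), a cytosolic chaperone, Serbp1 (0.395), an RNA-binding protein, and Set (0.384), a histone chaperone. They were followed by Srm (0.370), the spermidine synthase, Ran (0.366), the GTPase of nuclear transport, Hsp90aa1 (0.358), Hspe1 (0.345), the partner of Hspd1, and Hspa8 (0.343). Over all genes at 20 CPM or more, the median was 0.008 and the 95th percentile 0.142. These genes are abundant, and counts of abundant genes allow higher correlations.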

How the data were processed

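scRNA-Seq was performed on 2 Bregs-CpG and 2 Bregs-TLR samples. The deposited matrix holds whole UMI counts that the authors made with Cell Ranger (version 3.1.0, per the submitters' processing notes), using mm10 with Ensembl genes, and combined across libraries with its aggr step, which evens out depth. No imputation or size factor is in these values. The last 19920 columns were read with the barcodes, 16069 columns were not used here, and libraries were described without a group. CPM is UMIs of a gene per 1000000 UMIs of the library. Ratios were taken for genes of at least 5 CPM, with exact conditional 95% intervals. Levels have exact Poisson intervals, and shares have Clopper-Pearson intervals. UMIs were summed per library. Cells were thinned to 5000 UMIs without replacement (seed 1). TMM factors came from edgeR (version 4.0.16, R version 4.3.3), and the rest from Python (version 3.11.15) and SciPy (version 1.17.1). Calculations were tested on simulated data, in which the marker state of a cell was known and independent of its depth. The calling of Mcm3 by detection, and its relation to depth, were not covered by that test. Doublets were not removed, and cells above 30000 UMIs were left out in an alternative. The 42 genes and all lists were chosen with earlier results of these data known. Named genes were all 42, up to 2 highest and 2 lowest of each other list, and the 10 genes that correlated best with the sum. Gene positions are from GENCODE vM21 (GRCm38), which is not the release that the authors counted on. No difference between the 2 groups was tested, since barcodes name no sample.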

Additional observations from a re-analysis of the deposited data

How the results depend on the processing

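No paired analysis was possible because the barcodes carry neither a sample nor a replicate number. In comparisons of library 7 or 8 with 5 or 6, between 35 and 40 genes were past the fold as higher and 0 as lower under all 11 alternatives (other denominators, scalings, filters, thinning, and a 2-fold limit). A level of at least 20 CPM kept 38 of the 42 genes. The shares of all genes under these alternatives are not given. The direction of single genes changed in these comparisons only for Nop10 with TMM scaling and for Polr1a under 5% mitochondrial UMIs, whereas up to 19 of 84 near-zero values of library 6 over 5 and library 8 over 7 changed sign. For library 6 over 5, 2 genes were higher and 2 lower under 5% mitochondrial UMIs, where 143 and 207 cells remained, and 1 was lower in thinned cells without Mcm3. The comparison by Mcm3 depended more on the choices. In the range of 8000 to 12000 UMIs, added after the data were seen, 10 and 3 genes were higher and 6 and 8 lower in libraries 5 and 6, the summed log2 ratios were 0.177, 0.084, -0.022, and 0.019 in libraries 5 to 8, and the median of 19 of the 42 genes over libraries changed sign, against 0 to 8 under the other alternatives. For the alternatives that follow, the shares of all genes past the limit are not given. Their counts therefore cannot be read as a stronger or weaker difference of the 42 genes. With 2 or more Mcm3 UMIs, 32 and 24 genes were higher in libraries 5 and 6, 2, 3, 1, and 2 were lower in libraries 5 to 8, and the summed ratios were 0.78, 0.71, and 0.049 in libraries 5, 6, and 7. With Mcm5 the summed ratios were 0.51, 0.43, 0.017, and 0.032, and 2 genes each were lower in libraries 5, 6, and 8. With Pcna they were 0.35, 0.27, and 0.042 in libraries 5, 6, and 8, with 1 gene lower in libraries 6 and 8 and 1 higher in library 8. Thinned to 3000 UMIs, 23 genes were higher in library 6 (summed ratio 0.40), and 5, 1, and 1 were lower in libraries 5, 6, and 8. Thinned to 8000 UMIs, the summed ratios were 0.35, 0.011, and 0.021 in libraries 5, 7, and 8, with 0 genes lower in library 5. Without thinning they were 0.064 and 0.079 in libraries 7 and 8, with 0 lower in library 5. Another seed gave a summed ratio of 0.36 in library 5, 1 gene lower in libraries 6 and 8, and 1 higher in library 8. Without cells with a Mki67 UMI, the summed ratios were 0.38, 0.34, 0.049, and 0.088. With a denominator without mitochondrial, ribosomal protein, and immunoglobulin genes they were 0.37, 0.32, and 0.049 in libraries 5, 6, and 8. At 20 CPM or more, 0 genes were lower in library 5. Leaving out each library in turn, 0 genes were higher and 0 lower in all remaining libraries. This outcome was fixed in advance, because libraries 7 and 8 each had 0 genes higher and 0 lower, so it is no check. The cause of these changes was not tested.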
